A study of Mus musculus with 8 samples.

Results

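The genes described here are 10 genes of the mast cell: the granule proteases Mcpt1, Mcpt2, Mcpt4, Cma1 and Cpa3, the IgE receptor chains Fcer1a and Ms4a2, the growth factor receptor Kit, the histamine-forming enzyme Hdc and the transcription factor Gata2. They were chosen by name, and 14 of the 45101 probe sets on the array were annotated to exactly 1 of them, out of 18194 genes named on it. The tissue was the Peyer's patch, a cluster of lymphoid follicles in the wall of the small intestine, of C3H/Hej mice, an inbred strain with a defective Tlr4. Female OVA mice (n = 2, replicates 2 and 12) and male OVA mice (n = 4, replicates 1, 5, 8 and 13) were given ovalbumin, the egg white allergen, by gavage at 40 mg/kg daily over 28 days, and the labels call them allergic. The female control (n = 1, replicate 7) and the male control (n = 1, replicate 8) received saline by the same route, and all mice were 6 weeks old at the start. The labels state no injected adjuvant, and no antibody titre or symptom score was analysed here. Each mouse was read on 1 single-colour Affymetrix array.

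Mast cells sit beneath and within the gut epithelium and in deeper connective tissue. They carry IgE on a high-affinity receptor, and when allergen cross-links that IgE they release histamine, lipid mediators and granule proteases. In the mouse, Mcpt1 and Mcpt2 are the chymase-family proteases of mucosal mast cells, while Mcpt4 and Cma1 are typical of connective tissue mast cells. The Mcpt1 protein is shed into blood during intestinal allergic reactions, which is why it is followed in models of food allergy.

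Mcpt1, Mcpt2, Mcpt4 and Cma1 lie together. In the RefSeq gene order on mouse chromosome 14 they run Cma1, Cma2, Mcpt1, Mcpt2, Mcpt9, Mcpt4, Mcpt8, Ctsg and then a row of granzymes ending in Gzmb. RefSeq promoter windows (GRCm38.p6) were found for 9 of the 10 genes, Mcpt2 being the other one, in 11 windows. The windows of Mcpt1, Mcpt4 and Cpa3 are shown because Mcpt1 varied widely between mice, Mcpt4 is its close relative by sequence and stayed dim, and Cpa3 is a protease from another chromosome. Each line gives the 250 bases before the annotated start on the gene's own strand. The capitals mark GATAA, a form of the letters bound by GATA factors, searched on both strands (TTATC on the reverse).
Mcpt1, chr14:56017714-56017963, plus strand: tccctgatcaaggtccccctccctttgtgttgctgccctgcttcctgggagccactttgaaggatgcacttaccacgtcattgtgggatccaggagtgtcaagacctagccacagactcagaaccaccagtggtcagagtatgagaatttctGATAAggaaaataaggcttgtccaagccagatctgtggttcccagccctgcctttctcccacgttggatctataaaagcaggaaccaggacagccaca
Mcpt4, chr14:56062311-56062560, minus strand: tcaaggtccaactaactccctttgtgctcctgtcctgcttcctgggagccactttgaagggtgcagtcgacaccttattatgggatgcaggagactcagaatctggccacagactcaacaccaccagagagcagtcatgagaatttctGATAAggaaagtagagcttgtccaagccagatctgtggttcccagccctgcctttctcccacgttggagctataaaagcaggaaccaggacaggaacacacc
Cpa3, chr3:20242182-20242431, minus strand: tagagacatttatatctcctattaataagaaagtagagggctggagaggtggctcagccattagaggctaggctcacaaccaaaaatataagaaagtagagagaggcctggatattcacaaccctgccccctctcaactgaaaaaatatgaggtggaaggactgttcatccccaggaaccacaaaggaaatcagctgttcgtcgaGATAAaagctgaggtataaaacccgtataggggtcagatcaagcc
A global alignment of the Mcpt1 and Mcpt4 windows had 213 identical positions, 27 mismatches and 20 gap positions, an identity of 81.9%. The other 35 pairs of member windows aligned at 42.8 to 54.1%. GATAA began 98 bases before the start in Mcpt1, 102 in Mcpt4 and 45 in Cpa3. It was present in 6 of the 11 member windows, those of Mcpt1, Mcpt4, Cpa3, Cma1, Fcer1a and Ms4a2, and in 22.6% of all 32851 windows of that length. The windows of Kit, Hdc and Gata2 do not hold GATAA on either strand. Other forms, such as the GATAG in the Hdc window, were not searched. A match is a string of letters, and no binding was measured.

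Of the 10 mast cell genes, 5 were bright enough to test. Values are the deposited probe set intensities on a linear scale. A probe set counted as bright enough to test when its mean log2 value lay above the median of all probe sets, an intensity of 11.9. Of the 14 probe sets 6 passed, 1 each for Mcpt1, Mcpt2, Cpa3 and Kit and 2 for Gata2. Intensities of different probe sets are not amounts of RNA on a common scale and were not ranked against each other. The summed intensities of gene lists below add such values, so the brightest probe sets weigh most. They compare arrays within a list and are not amounts of a cell type. Both chains of the IgE receptor that were looked for, Fcer1a and Ms4a2, were below the filter, as were Mcpt4, Cma1 and Hdc. The defining receptor of the cell was thus not bright enough to test, and of its most restricted genes only the mucosal proteases and Cpa3 were. Near the limit, Gata2 (1428816_a_at) and Cpa3 lay just above it, and Mcpt4, with intensities of 9.11 to 15.1, just below. For Cpa3 the mean log2 value stood at an intensity of 13.5, and the control mean of 11.1 was under the limit.

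As for the tissue, all 7 B cell genes with a probe set passed the filter and 1 of 6 neuron genes did, although the labels' extraction text names another tissue. Array means without the highest and lowest 2% of values lay between 65.1 and 68.2. In bulk tissue, fewer mast cells and less RNA per mast cell cannot be told apart. With 8 arrays, precision is limited throughout.

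**Figure D1:**
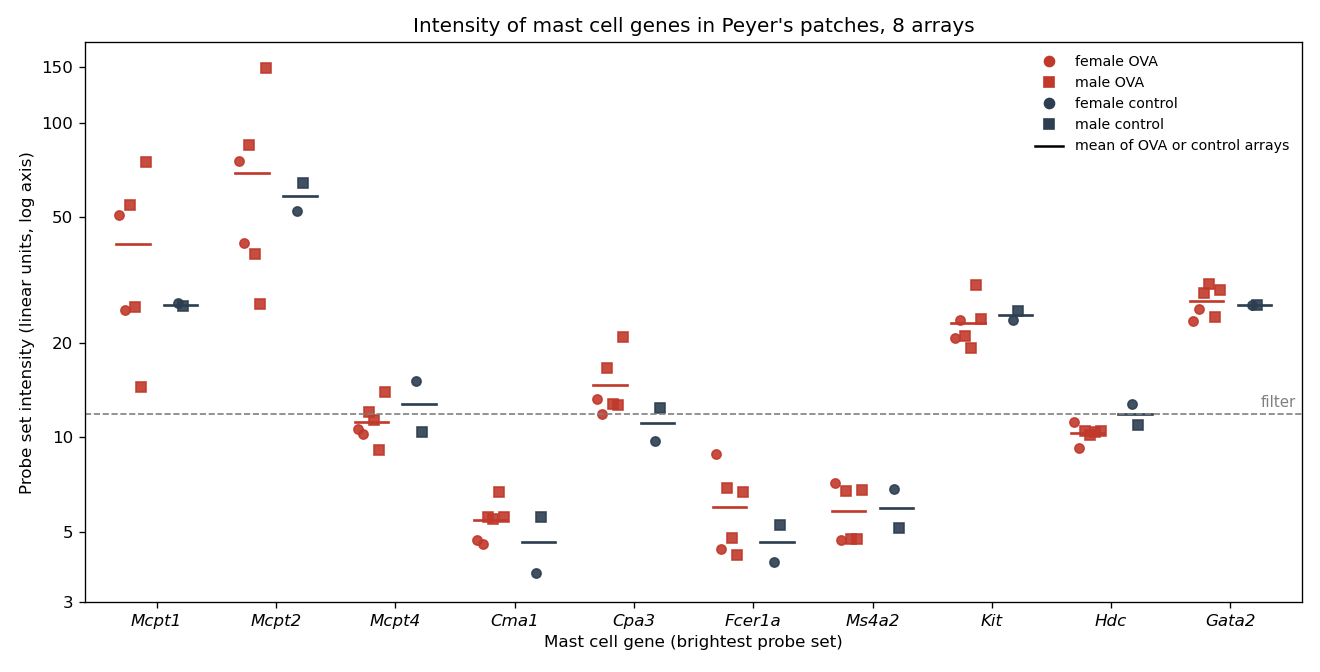
Intensity (linear units on a log axis) of the brightest probe set of each of the 10 mast cell genes in 6 OVA and 2 control arrays, circles for females and squares for males, with bars at the mean of the OVA or control arrays and a dashed line at the filter of 11.9. Heights compare arrays within a gene only; OVA mice spread from 14.4 to 75.1 for Mcpt1 and from 26.6 to 149 for Mcpt2, on both sides of the controls.

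Mcpt1 varied more than 5-fold among the 6 OVA mice, and the 2 controls lay close together. Its intensity was 51.0 in female OVA 2, 25.4 in female OVA 12, 54.7 in male OVA 1, 26.0 in male OVA 5, 14.4 in male OVA 8 and 75.1 in male OVA 13. The control values were 26.6 in female control 7 and 26.1 in male control 8. So 3 OVA mice stood above both controls and 3 below both, female OVA 12 and male OVA 5 only just. With 1 control of each sex, how much Mcpt1 varies among control mice cannot be read. Mcpt2, its neighbour on the chromosome, was at 75.6 in female OVA 2, 41.4 in female OVA 12, 84.8 in male OVA 1, 38.2 in male OVA 5, 26.6 in male OVA 8 and 149 in male OVA 13, against 52.5 in female control 7 and 64.3 in male control 8. The same 3 OVA mice were above the controls and the same 3 below. The highest of the 8 arrays exceeded the lowest 5.21-fold for Mcpt1 and 5.61-fold for Mcpt2. Their SD over the 8 arrays on the log2(intensity + 4.88) scale was 0.68 for Mcpt1 and 0.72 for Mcpt2, larger than in 99.2% and 99.3% of the 22518 tested probe sets. The pseudocount of 4.88, the 25th percentile of all values, understates differences of dim genes.

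Cpa3, the carboxypeptidase stored with the chymases, was at 13.3 in female OVA 2, 11.8 in female OVA 12, 16.6 in male OVA 1, 12.8 in male OVA 5, 12.7 in male OVA 8 and 20.8 in male OVA 13. The controls were at 9.75 in female control 7 and 12.4 in male control 8. Of the 6 OVA mice 5 were above both controls and 1 lay between them, so the groups overlapped. The 2 proteases typical of connective tissue mast cells were below the filter, so their narrower ranges cannot be set against those of Mcpt1 and Mcpt2. Among OVA mice Mcpt4 ran from 9.11 in male OVA 8 to 13.99 in male OVA 13, also the lowest and highest arrays for Mcpt1 and Mcpt2. It was 15.1 in female control 7 and 10.4 in male control 8. Cma1 ran from 4.59 to 6.73 in OVA mice (median 5.54) and was 3.70 in female control 7 and 5.58 in male control 8. Both genes overlapped between the groups, and both were too dim for an absent difference or a small spread to be read from them.

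The receptor chains gave weak signals below the filter, too dim for an order over the mice to be read from them. Fcer1a, the IgE-binding chain, was at 8.86 in female OVA 2, 4.43 in female OVA 12, 6.92 in male OVA 1, 4.797 in male OVA 5, 4.24 in male OVA 8 and 6.71 in male OVA 13, against 4.03 in female control 7 and 5.27 in male control 8. For Ms4a2, the signal-amplifying beta chain, the brighter probe set (1443264_at) read 7.19 in female OVA 2, 4.73 in female OVA 12, 6.78 in male OVA 1, 4.76 in male OVA 5, 4.76 in male OVA 8 and 6.82 in male OVA 13, against 6.84 in female control 7 and 5.14 in male control 8. The other Ms4a2 probe set (1421475_at) went the other way, with its lowest values, 2.99 and 3.27, in male OVA 1 and male OVA 13. Female OVA 2, male OVA 1 and male OVA 13 were the 3 highest arrays for Mcpt1, Mcpt2 and Cpa3. The dim Fcer1a had the same 3 arrays on top, an order that is not read as a result. No other member probe set had those 3 arrays on top. Among the 22518 tested probe sets, which do not include Fcer1a, 0.826% had those 3 arrays on top. The 3 arrays were taken from Mcpt1 itself after the values were seen, so this share is a description and no test.

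Kit, the receptor for stem cell factor, did not share this order. Its brighter probe set (1452514_a_at) was highest in male OVA 8, at 30.5, the array lowest for Mcpt1 and Mcpt2. The other OVA mice lay between 19.2 and 23.8, against 23.7 in female control 7 and 25.2 in male control 8. Kit is also made by interstitial cells of Cajal and some innate lymphoid cells, so its level is not a measure of mast cells alone. The 2 pacemaker cell genes with a probe set were Ano1 and Gucy1a1. Their summed intensity ran from 106 to 124 in OVA mice and from 119 to 122 in controls, with the highest value in male OVA 8. The B cell sum, the T cell sum and Il1r1, the 1 innate lymphoid cell gene with a probe set, were also highest in male OVA 8. The dimmer Kit probe set (1415900_a_at) was likewise highest in male OVA 8, at 9.81. The part of any of these cell types in the Kit level was not tested.

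Gata2, a transcription factor that mast cells share with endothelium and other cells, was nearly flat. Its brighter probe set (1450333_a_at) lay between 23.4 and 30.8 in OVA mice (median 27.2) and at 26.3 in female control 7 and 26.4 in male control 8. The second (1428816_a_at) lay between 10.9 and 14.3 in OVA mice, against 13.2 in female control 7 and 14.3 in male control 8. The SD of 1428816_a_at over the arrays exceeded that of 13.3% of tested probe sets. Hdc, which makes histamine from histidine, is read by 2 probe sets with the suffix that marks probes shared between transcripts. The brighter (1451796_s_at) ran from 9.26 to 11.2 in OVA mice (median 10.4), against 12.8 in female control 7 and 10.9 in male control 8, and the dimmer (1454713_s_at) from 4.11 to 5.20, against 3.84 in female control 7 and 4.30 in male control 8. The signs of the 2 probe sets' differences were opposite, and neither was called.

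**Figure D2:**
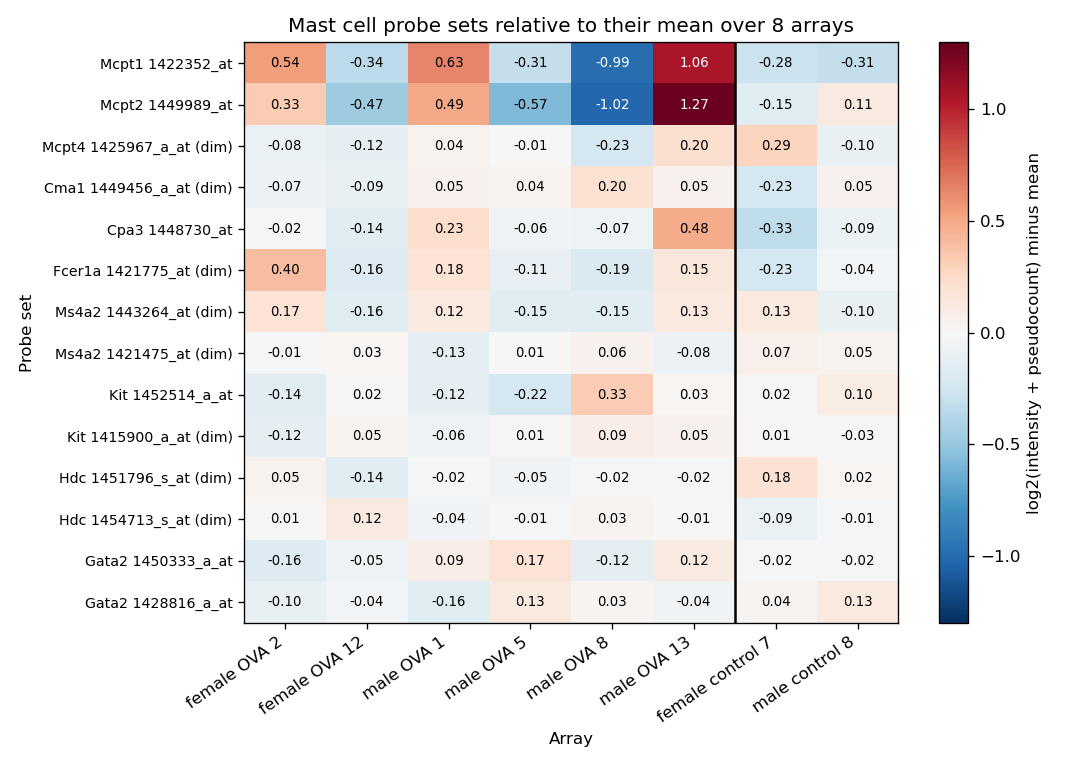
Each of the 14 mast cell probe sets (rows, "dim" for those below the filter) in 6 OVA and 2 control arrays (columns), as log2(intensity + 4.88) minus its mean over the 8 arrays. Male OVA 13 stands at 1.06 for Mcpt1, 1.27 for Mcpt2 and 0.48 for Cpa3, male OVA 8 at -0.99 and -1.02 for Mcpt1 and Mcpt2, and Gata2 stays within 0.174 of its mean.

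The comparison of OVA with saline asked whether repeated oral allergen left more mast cell transcript in the patch. No mast cell gene passed the test. Of the 6 tested probe sets 0 passed in the limma fit of treatment and sex over all arrays (Benjamini-Hochberg over 22518 probe sets, threshold 0.05), against 0% of all probe sets. At an unadjusted p under 0.05 there were again 0 of 6, against 11.2% of all, 6.88% on the higher and 4.33% on the lower side. Without female OVA 12 the number of such probe sets was 1671, against 2524 with all arrays. None of the 14 member probe sets had all OVA mice above both controls or below both, while 8.36% of tested probe sets were above and 5.01% below.

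Mcpt1 averaged 41.1 ± 22.9 in OVA mice (SD, n = 6) and 26.4 ± 0.356 in controls (SD, n = 2), a log2 difference of 0.40 ± 0.49 (SE, limma adjusted p = 0.758). The 95% interval of that difference ran from -0.73 to 1.52, from a 0.605-fold to a 2.86-fold level. Mcpt2 averaged 69.3 ± 45.3 in OVA mice (SD, n = 6) and 58.4 ± 8.34 in controls (SD, n = 2), and its difference of 0.00 ± 0.54 had an interval of -1.22 to 1.22. For both chymases the spread among OVA mice was wider than the difference between the groups, and these intervals include a doubling of either gene. Cpa3 averaged 14.7 ± 3.44 in OVA mice (SD, n = 6) and 11.1 ± 1.87 in controls (SD, n = 2), the latter under the filter. Its difference was 0.24 ± 0.16 (SE, limma adjusted p = 0.551), with an interval of -0.11 to 0.60. Kit differed by -0.09 ± 0.15 (SE) and Gata2 by 0.00 ± 0.11 (SE), with intervals of -0.43 to 0.25 and -0.25 to 0.26. The sign of the Mcpt2 and Gata2 differences turned with the scaling or with single arrays left out, and Mcpt1 moved between 0.23 and 0.79 without passing.

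Over samples alone, the exact two-sided permutation test over the 28 splits into 2 and 6 arrays gave p = 0.607 for Mcpt1, 0.964 for Mcpt2, 0.179 for Cpa3, 0.607 for Kit and 0.857 for Gata2. The smallest p among the 14 probe sets was 0.0714, for Hdc (1451796_s_at), where 5 of 6 OVA mice lay below both controls. The smallest p this design allows is 0.0357. Nothing in the labels pairs the mice, and p-values reflect the spread between these animals.

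**Figure D3:**
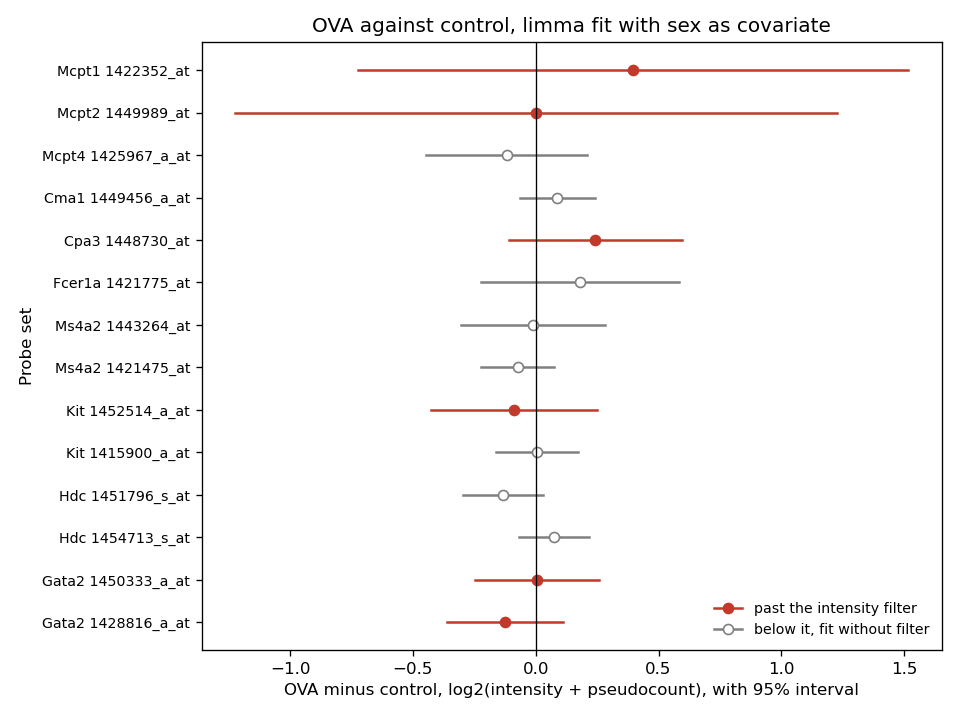
Difference between OVA and control arrays on the log2(intensity + 4.88) scale for the 14 mast cell probe sets, with 95% intervals, filled for those past the intensity filter and open for those below it, which were fitted without the filter. Every interval spans 0, and those of Mcpt1 (-0.73 to 1.52) and Mcpt2 (-1.22 to 1.22) are the widest.

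Sex made no called difference either. Of the 6 tested member probe sets 0 passed for female against male (limma, smallest adjusted p = 0.906), against 0.0533% of all probe sets, and 0 had an unadjusted p under 0.05, against 5.41%. That last share, 1218 probe sets, rests on single arrays: the number was 703 without female OVA 2, 731 without female OVA 12, 766 without male OVA 5, 2370 without male OVA 8 and 2042 without either control. Log2 differences ran from -0.23 for Cpa3 to 0.01 for Mcpt1. For the difference between females and males in the OVA effect, again 0 of 6 passed (smallest adjusted p = 0.892), against 0% of all probe sets, and 0 of 6 had an unadjusted p under 0.05, against 8.2%. With 1 control per sex each lone control was assumed to vary like the other arrays, and the SE of this difference was 1.07 for Mcpt1 and 1.17 for Mcpt2. The 3 arrays highest for Mcpt1 and Mcpt2 came from both sexes.

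Mcpt1 and Mcpt2 varied together from mouse to mouse. Pearson's r of their log2 values over the 8 arrays was 0.94, with p = 0.000719 by exact permutation and 0.00719 after adjustment over the 10 pairs of the 5 tested genes. Spearman's rho was 0.95, with p = 0.00114 by exact permutation and 0.0114 after adjustment. Within the 6 OVA arrays r was 0.98, and it was 0.87 once male OVA 13 and male OVA 1, which lie farthest from the Mcpt1 median, were left out. Without male OVA 13 r was 0.91. The 2 probe sets read related genes, and whether their probes bind each other's transcripts was not tested.

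Cpa3 was less tightly tied to them. It had r = 0.77 with Mcpt1 (exact permutation p = 0.0214, adjusted 0.107) and 0.74 with Mcpt2 (exact permutation p = 0.0353, adjusted 0.118). Its rho was 0.64 with Mcpt1 (exact permutation p = 0.0962, adjusted 0.383) and 0.62 with Mcpt2 (exact permutation p = 0.115, adjusted 0.383). Without male OVA 13 and male OVA 1, the 2 arrays farthest from the Mcpt1 median, r with Mcpt1 was 0.16, so that relation rests on those arrays. For Mcpt2 the 2 farthest arrays were others, male OVA 13 and male OVA 8, and r without them was 0.58. Without male OVA 13 alone, r was 0.56 with Mcpt1 and 0.42 with Mcpt2, and neither relation passed. Without female control 7 both relations passed after adjustment (r = 0.81 with Mcpt1 and 0.83 with Mcpt2). The one with Mcpt1 also did without male OVA 8 (r = 0.88). The other 7 pairs, all with Kit or Gata2, had r between -0.53 and 0.46 and adjusted p of 0.431 or more by exact permutation.

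**Figure D4:**
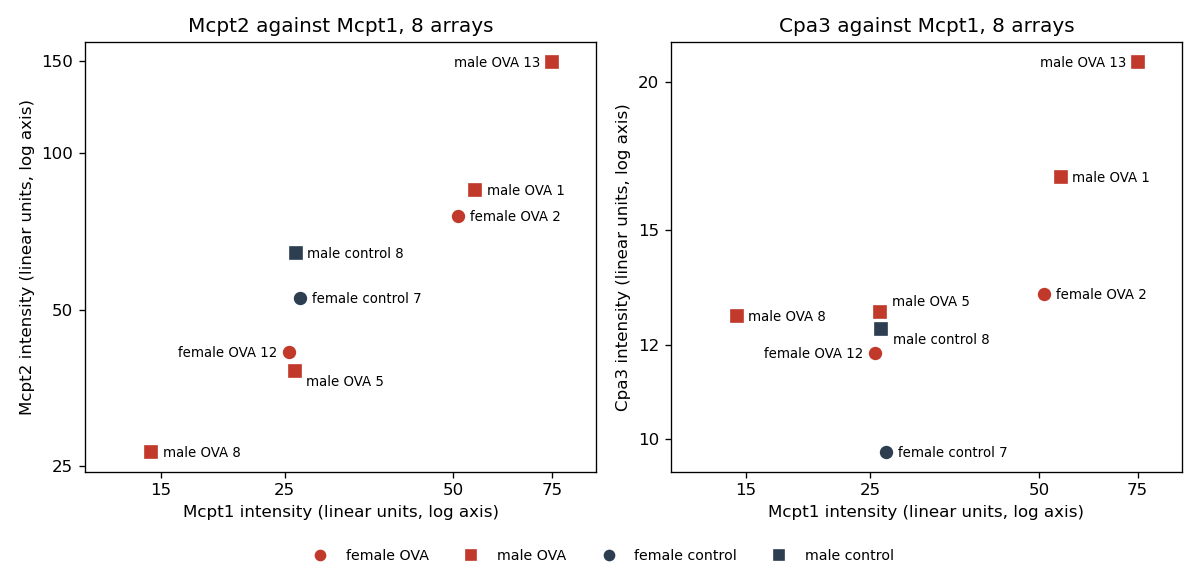
Intensity of Mcpt2 (left) and Cpa3 (right) against Mcpt1 in the same array, log axes in linear intensity units, circles for females and squares for males, red for OVA and dark for control arrays. Mcpt2 follows Mcpt1 over the 8 arrays (r = 0.94 on the log2 scale), while Cpa3 is highest in male OVA 13 and male OVA 1.

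Summed intensities of genes of other cell types differed between the same mice. The 6 epithelial genes measured had a summed intensity of 11534 in male OVA 8, the lowest array for Mcpt1 and Mcpt2, and 17256 in male OVA 13, the highest, with 14434 to 16107 in the remaining OVA mice, against 16860 in female control 7 and 18056 in male control 8. The 7 B cell genes summed to 5372 in male OVA 8 and 5157 in female OVA 12, which were low for both chymases, and to 2560 in male OVA 13, against 2710 in female control 7 and 2517 in male control 8. Female OVA 2 and male OVA 1, high for both chymases, had B cell sums of 3362 and 3402, above the 3064 of male OVA 5, which was low for both. The epithelial sum of male OVA 5 was 14434. Exocrine pancreas genes (Cpa1, Cpb1 and Cela2a) had a sum of 3272 in male OVA 13, between 27.4 and 185 in the remaining OVA mice, and of 114 in female control 7 and 30.02 in male control 8. The part of follicle, epithelium or pancreas in the chymase levels was not tested. Without male OVA 13 the log2 difference of Mcpt1 was 0.23 and that of Mcpt2 -0.21, and without female OVA 12 and male OVA 8 together, a choice made after the data were seen, they were 0.79 and 0.36. Neither passed in either case.

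Basophils, which share the IgE receptor, gave no signal above the filter: Mcpt8, Cd200r3 and Il4 reached at most 10.03 on any array and summed to 13.2 to 17.7 in OVA mice and 15.2 to 16.5 in controls. The eosinophil genes Prg2, Epx, Siglecf, Ccr3 and Il5ra were also below the filter, with 13.6 as the highest single value. Listed at these levels, neither cell type could be compared.

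The wider mast cell programme was described with 6 gene lists, taking for each gene the brightest of its tested probe sets. Of all 11988 genes so measured, 53.7% were higher in OVA mice, the median log2 difference was 0.02, 6.39% had an unadjusted p under 0.05 on the higher side and 3.82% on the lower side, and 0% passed after adjustment. No gene of the 6 lists passed after adjustment.

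Among other mast cell genes, 6 of the 10 with a probe set were measured, 2 higher and 4 lower, with a median of -0.06 and 0 at an unadjusted p under 0.05. Without male control 8, which leaves the contrast within females, 5 of the 6 were higher. The tryptases Tpsb2 and Tpsab1, the itch receptor family member Mrgprb1 and the amine transporter Slc18a2 stayed below the filter, with no value above 9.25. Serglycin (Srgn), the core protein that packs granule proteases in mast cells and is made by many blood cells, averaged 2359 ± 409 in OVA mice (SD, n = 6) and 1833 ± 271 in controls (SD, n = 2), a log2 difference of 0.38 ± 0.18 (SE, limma adjusted p = 0.457). Srgn was highest in male OVA 8, at 2929, and female OVA 12, at 2786, the arrays with the highest B cell sums. The part of B cells in Srgn was not tested. Ndst2, an enzyme of heparin synthesis, was at 56.2 to 62.3 in OVA mice and 64.8 to 70.0 in controls. Its log2 difference was -0.17 ± 0.09 (SE). The groups did not overlap, but 5.01% of tested probe sets had all OVA mice below both controls. Ndst2 was also named for its small p. Mlph, a granule transport adaptor, differed by -0.21 ± 0.13 (SE), and its second tested probe set had the opposite sign.

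Of the Fc receptor signalling genes, 10 of 12 measured were higher, with a median of 0.31, and 1 had an unadjusted p under 0.05, all without passing. That gene was the adaptor Lat2, at 96.6 to 208 in OVA mice and 62.4 to 86.1 in controls (log2 difference 0.91 ± 0.27 SE, limma adjusted p = 0.389). Its groups did not overlap, but 8.36% of tested probe sets had all OVA mice above both controls. Lat2 was also named for its small p. The lipid phosphatase Inpp5d differed by 0.46 ± 0.23 (SE) and the phospholipase Plcg2 by 0.43 ± 0.23 (SE). These 3 genes are also expressed in B cells, and all 7 measured B cell genes were higher in OVA mice with a median of 0.52. The list summed to 2489 in female OVA 12 and 2445 in male OVA 8, the arrays with the highest B cell sums, and lay between 1545 and 1951 in the remaining OVA mice, against 1606 in female control 7 and 1515 in male control 8. The part of B cells in this list was not tested.

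Genes of lipid mediator synthesis divided. Of 6 measured, 4 were higher and 2 lower with a median of 0.08, and 1 on the higher and 2 on the lower side had an unadjusted p under 0.05. Without male control 8 the number higher was 2. Hpgds, the prostaglandin D synthase of mast cells and other blood cells, was at 38.1 to 48.9 in OVA mice and 26.3 to 26.5 in controls (limma adjusted p = 0.303). Unlike the chymases it was highest in male OVA 8. Ptgs2, the inducible cyclooxygenase, was at 12.3 to 16.5 in OVA mice and 16.2 to 24.0 in controls (log2 difference -0.37 ± 0.13 SE). Alox5, which starts leukotriene synthesis, was at 15.02 to 24.4 in OVA mice and 27.2 to 27.4 in controls (-0.35 ± 0.13 SE). Hpgds and Alox5 did not overlap between the groups, on opposite sides. Among all tested probe sets, 8.36% had all OVA mice above both controls and 5.01% below both. These 2 genes were also named for their small p.

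Of the growth, homing and transcription factor genes, 11 of 16 were measured, 8 higher and 3 lower with a median of 0.15, and 1 had an unadjusted p under 0.05. Stat5a, which relays Kit and cytokine signals, was at 35.04 to 53.2 in OVA mice and 30.6 to 30.7 in controls (0.40 ± 0.16 SE). Its groups did not overlap, but 8.36% of tested probe sets had all OVA mice above both controls. Stat5a was also named for its small p. Mitf, a transcription factor needed for mast cell development in mice, differed by 0.38 ± 0.19 (SE), and Tgfb1, a cytokine that induces Mcpt1 in cultured mouse mast cells, by 0.29 ± 0.18 (SE). This list summed to 1363 in female OVA 12 and 1498 in male OVA 8, the arrays with the highest B cell sums. It lay between 1029 and 1258 in the remaining OVA mice, against 1182 in female control 7 and 1119 in male control 8. The part of B cells in this list was not tested. The cytokine Il3, the receptor Il9r, the blood factors Gata1 and Tal1 and the chemokine receptor Cxcr2 were below the filter. Of the 5 genes of histamine handling, only 2 were measured: the degrading enzymes Aoc1, at -0.54 ± 0.25 (SE), and Hnmt, at 0.13 ± 0.15 (SE). Without male control 8, 0 of these 2 were higher. The histamine receptors Hrh1, Hrh2 and Hrh4 were below the filter. Among OVA mice Aoc1 was lowest in male OVA 8, at 768, and highest in male OVA 13, at 1555. The epithelial sum had the same lowest and highest OVA arrays. All 6 epithelial genes measured were lower in OVA mice, with a median of -0.22. The part of epithelium in the Aoc1 level was not tested.

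Along the chymase locus, Gzmb, the cytotoxic lymphocyte protease at its far end, was the single measured neighbour. It was at 134 in female OVA 2, 184 in female OVA 12, 355 in male OVA 1, 323 in male OVA 5, 134 in male OVA 8 and 290 in male OVA 13, against 315 in female control 7 and 358 in male control 8 (log2 difference -0.70 ± 0.34 SE, limma adjusted p = 0.478). Female OVA 2 and male OVA 8, the lowest arrays for Gzmb, stood on opposite sides of the controls for Mcpt1 and Mcpt2. The other 8 neighbours with a probe set, Ctsg, Mcpt8, Gzmc, Gzmd, Gzme, Gzmf, Gzmg and Gzmn, reached at most 6.81.

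The genes whose pattern over the 8 arrays was most like that of a member were found by Pearson r on log2 values among 11988 genes, as a description without a test. For Mcpt1 the nearest was Mcpt2 itself (r = 0.94), followed by Tmed6, a cargo receptor of the secretory pathway (0.94), Tmem11 (0.94), Hyi (0.92) and Cnnm4 (0.92). For Mcpt2 they were Setmar (0.96), Clps, the pancreatic colipase (0.95), Mcpt1 (0.94), the transcription factor Foxo4 (0.94) and the stress-induced Nupr1 (0.94). Cpa3 ranked 170 on the list of Mcpt1 and 407 on that of Mcpt2, while Kit ranked 10318 and 8146. For Cpa3 the nearest were the co-chaperone Dnaja4 (0.97), Rusc2 (0.96), Snorc (0.96), Lce3c (0.93) and Chpf (0.92). The genes nearest to Kit were Ago1 (0.96), the nuclear lamin Lmnb1 (0.96), Zfp839 (0.96), the lysosomal Psap (0.92) and Usp34 (0.92), and those nearest to Gata2 were Bad (0.98), Nudt9 (0.96), Chmp5 (0.95), the ATP synthase subunit Atp5h (0.95) and Ccdc107 (0.95). No mast cell gene of the 5 tested was among the nearest 5 of Cpa3, Kit or Gata2.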

How the data were processed

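Total RNA of Peyer's patches from 8 mice was labelled with biotin and read on single-colour Affymetrix arrays. The values are linear probe set intensities, normalized and deposited by the authors. The submitters' processing notes name MAS5, which was not checked here. Version: not given in the sources used here. On 51.5% of probe sets 2 or more arrays held equal values, and array means without extreme values ran from 65.1 to 68.2. Whether MAS5 alone gives such values was not tested. Values were used as deposited. No detection calls, scan dates or batches were analysed here.

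The members and lists were chosen with earlier results of these data known. The 64 control probe sets were left out, and log2(intensity + 4.88) was taken without further scaling. Of the rest, 22518 passed the intensity filter. Probe sets were named from GEO's platform annotation, which gave 1 gene to 34958, several to 932 and none to 9211. All 10 members matched the RefSeq gene table by identifier, with 0 symbols changed and 0 shared probe sets. For gene counts the brightest probe set stood for the gene.

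A fit of treatment plus sex (limma 3.58.1, lmFit and eBayes, R 4.3.3) with 5 residual degrees of freedom gave the OVA and the sex comparison. A fit of 4 group means gave the interaction of treatment and sex. Tests were two-sided. Correlations used exact permutation over 40320 pairings. The genes named were all member probe sets, up to 3 genes of smallest p per list and the 5 genes most like each tested member. Of the other cell types, those with values bearing on a member are named. Functions were tested on simulated data. Promoters were aligned with Biopython 1.88. Scripts ran in Python 3.11.15 with matplotlib 3.10.9, SciPy 1.17.1, pandas 2.3.3 and NumPy 2.4.6.

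Alternatives were other pseudocounts, quantile normalization, median centring, array weights, a robust trended variance, no filter or a filter at the 75th percentile, no covariate, each sex alone, sexes within OVA arrays, averaged probe sets per gene, and each array left out. Leaving out female OVA 12 and male OVA 8 together was added after seeing the data.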

Additional observations from a re-analysis of the deposited data

Results flagged for a closer look

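Of 28 groups of member values examined for an array far from the others (14 probe sets, in the 6 OVA and in the 4 male OVA arrays), 2 held one, and chance flags about 1 group in 20. Both genes were below the intensity filter. Cma1, the connective tissue chymase, was at 6.73 in male OVA 8, while the other male OVA arrays lay between 5.504 and 5.58. Hdc (1451796_s_at) was at 10.2 in male OVA 5, while the other male OVA arrays lay between 10.4 and 10.5.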

How the results depend on the processing

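The count of 0 mast cell genes past the threshold held for OVA against control, female against male and the interaction of treatment and sex under every alternative that tested a member. With the filter at the 75th percentile no member was tested, so that setting says nothing about them. Over 100 values of single genes for OVA against control, the smallest adjusted p was 0.474. Mcpt1 (0.23 to 0.79) and Cpa3 (0.17 to 0.31) stayed on the higher side and Kit (-0.19 to -0.04) on the lower side. Mcpt2 turned to -0.0107 with a pseudocount of 1, -0.0253 with quantile normalization and -0.0720 in males alone, and ran from -0.21 to 0.19 with 1 array left out. Gata2 turned to -0.0176 with quantile normalization, -0.0891 in females alone and -0.0599 as the mean of its probe sets, and ran from -0.0891 to 0.0833 with 1 array left out. The causes were not tested. Over all probe sets, female against male gave 12 calls, 4 with the filter at the 75th percentile and 2 with probe sets averaged per gene, settings that test fewer features. Counts of higher genes in the 6 lists stayed within 1.5 times in 116 of 126 cases, the others being the stricter filter and the fits without male control 8. The correlation of Mcpt1 with Mcpt2 ran from 0.90 to 0.98 and passed throughout. With 1 array left out, that of Mcpt1 with Cpa3 ran from 0.56 to 0.88 and that of Mcpt2 with Cpa3 from 0.42 to 0.84. Both were lowest without male OVA 13. It passed for both without female control 7, and for Mcpt1 without male OVA 8 and without female OVA 12 and male OVA 8 together (0.87). No paired analysis was possible because control and OVA mice share only the replicate number 8. Of the 10 members 5 lie below the filter, and the number of controls limits every comparison.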
